A study of Bos indicus with 55 samples.

Results

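The miRNAs described here are those of the DLK1-DIO3 imprinted cluster, measured in extracellular vesicles (EVs, membrane-bound particles shed by cells) from cattle conceptuses. Members were chosen by name: an entry of the vesicle count table belongs to the set when its miRNA number is one of 41 numbers known from this cluster. The rule found 55 of the 1024 entries, and 39 of the 41 numbers had an entry; miR-300 and miR-337 had none. Counts were present for 48 members and absent for 7, which were miR-329a, miR-329b, miR-376b, miR-376d, miR-544a, miR-1185 and miR-154a.

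DLK1-DIO3 is an imprinted region, in which a gene copy is used or silent according to the parent it came from. DLK1, RTL1 and DIO3 are expressed from the paternally inherited copy, while MEG3 and the other long noncoding transcripts that carry the miRNAs are expressed from the maternally inherited copy. The miRNAs of mammals fall into a first group around miR-127, part of which lies antisense to RTL1, and a second long row that runs from miR-379 to miR-410. Both are known for expression in the embryo, the placenta and the brain, and the region is a familiar place to look for faults of imprinting after nuclear transfer.

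Each of the 28 EV libraries came from 1 conceptus (the embryo with its membranes) recovered on day 16 of pregnancy and kept in culture medium for 6 h, and each carries a different animal code. In vivo conceptuses, from artificial insemination, gave 3 female and 3 male libraries. Conceptuses made by in vitro fertilisation (IVF) gave 7 female and 3 male libraries, and those made by nuclear transfer (cloning, by placing a donor cell's nucleus into an egg without its own) gave 5 female and 7 male libraries. No group carries a further treatment; the labels name the organism Bos indicus, the design text places the conceptuses in Bos taurus taurus, and the donor cells of the nuclear transfers are not named in the sources used here, so sex and donor cell cannot be told apart within nuclear transfer. Endometrium of the recipients was also sequenced and was not used here.

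Libraries held 39263 to 603579 miRNA counts, and 2 of them, in vivo male replicate 3 with 400928 and nuclear transfer female replicate 3 with 603579, were deeper than all others, which held at most 200856. The entries miR-2887 and miR-2904, which overlap ribosomal RNA, took 4.11% to 76.3% of the counts of a library. Entries known from epithelia (the miR-200 family, miR-141, miR-205 and miR-429), the kind of tissue that forms the outer layer of a conceptus, were present in every library at a summed level of 5862 to 103100 CPM (counts relative to a common library total, here after TMM scaling). No 2 libraries had identical counts. Levels below are TMM-scaled CPM unless a count is named, differences are log2 folds with their standard error (SE), and a member is called where edgeR's quasi-likelihood F test gives a Benjamini-Hochberg adjusted p under 0.05 over all miRNAs tested.

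The cluster was a small part of the vesicle cargo. Members summed to 10149 of 4025649 counts, and their share of a library ran from 0.0636% in IVF female replicate 6 (Wilson 95% interval 0.0515% to 0.0784%) to 1.06% in in vivo male replicate 2 (0.963% to 1.17%). The 2 deepest libraries were near the bottom of that range, at 0.0658% and 0.0696%. Between 17 and 39 members had a count in a library, with the highest number in nuclear transfer male replicate 6. These intervals cover counting error only, since the reads carry no molecular identifiers.

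A few members held most of the counts. miR-381 led with 1855 counts over the 28 libraries, followed by miR-127 with 1692, miR-379 with 1012, miR-370 with 998, miR-409b with 910, miR-493 with 799 and miR-411a with 518. These 7 were the members with counts in all 28 libraries. Mature miRNAs are of similar length, so counts were set side by side without a length correction; differences in how well each miRNA is ligated and copied were not corrected. miR-154c came next with 435 counts in 23 libraries.

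In 3 families of like names, a single entry held most of the counts. miR-411a had 518 counts against 6 for miR-411b and 29 for miR-411c-5p, miR-154c had 435 against 16 for miR-154b and 0 for miR-154a, and miR-409b had 910 against 51 for miR-409a. The miR-376 family, a run of near-identical copies, had at most 6 counts in any of its 5 entries, and miR-369 was divided into 68 counts for its 5p and 39 for its 3p entry. Reads that could match more than 1 such entry may have been split or assigned to 1 of them by the authors' counting, so the division within a family is uncertain. miR-382 and miR-299 had the same counts in every library as miR-3578 and miR-299-2, which are not members.

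In the order of the deposited table, 54 members stood in 1 stretch, and miR-544b, with 1 count, stood elsewhere. Before miR-379 stood 8 members (miR-493, miR-665, miR-431, miR-433, miR-127, miR-432, miR-136 and miR-370), here called the miR-127 end, and from miR-379 on stood 46, here called the miR-379 end. This division was made after values had been seen and is used for description. All 8 members of the miR-127 end had counts, as did 39 of the 46 at the miR-379 end.

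The low count filter kept 16 members in the fit of all 28 libraries, and these held 94.2% of the members' counts. It kept 8 in the fit of the 12 nuclear transfer libraries, 10 in that of the 10 IVF libraries and 8 in that of the 6 in vivo libraries. A member can pass the filter through the group in which it is high, so the members tested do not stand for all 55.

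**Figure D1:**
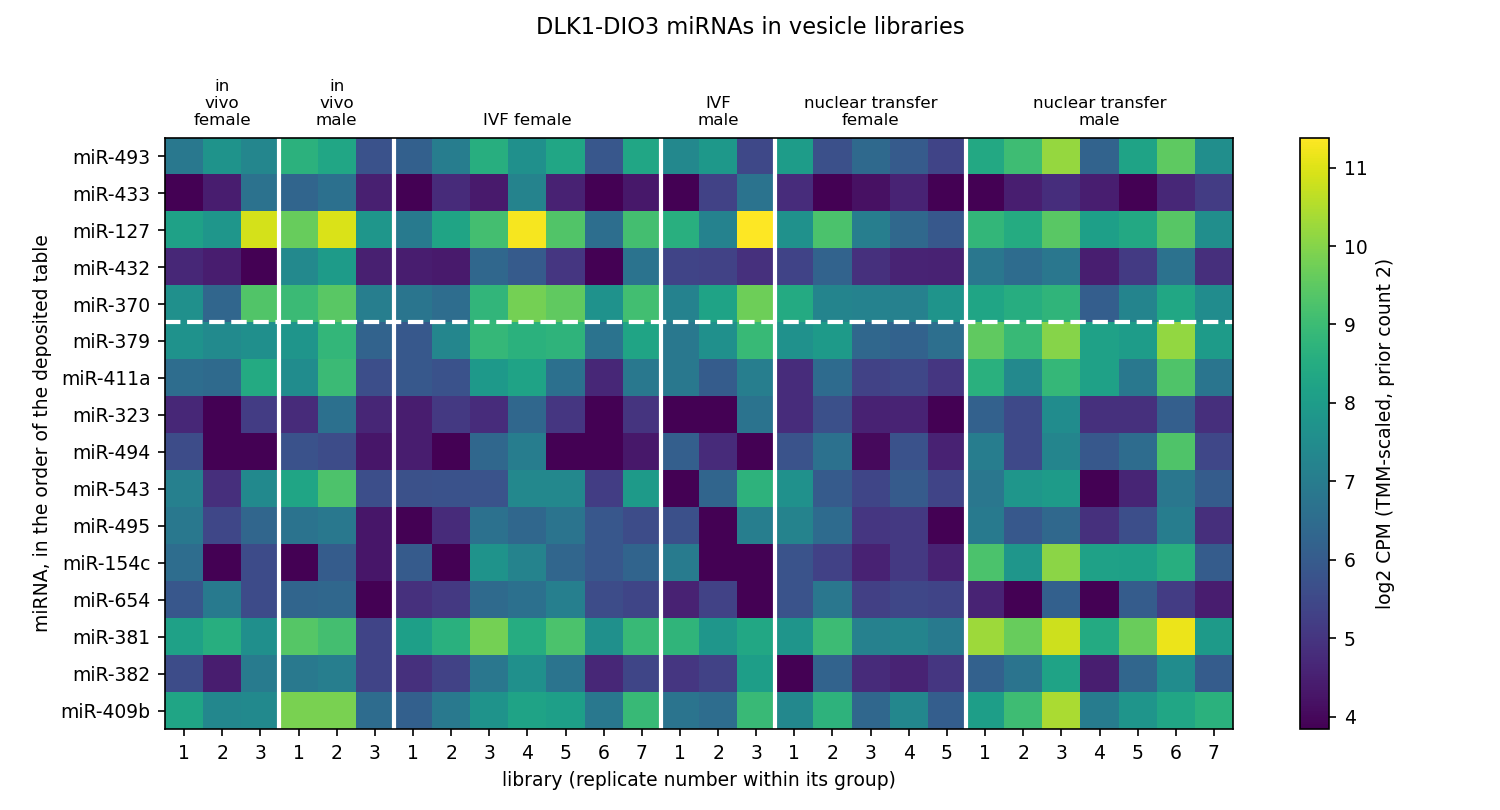
Level of the 16 members that passed the filter over 28 libraries (color, log2 CPM with a prior count of 2), in the order of the deposited table; solid lines part the 6 groups and the dashed line parts the miR-127 end (above) from the miR-379 end (below). miR-154c is brighter in most nuclear transfer male libraries than elsewhere, and miR-127 is brightest in 1 library of each of the in vivo and IVF groups.

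The difference that passed the test lay between male and female nuclear transfer vesicles. Of the 8 tested members, 5 were higher in males: miR-493 at the miR-127 end, and miR-379, miR-411a, miR-154c and miR-381 at the miR-379 end, by 2.24 to 4.45 on the log2 scale. miR-127 and miR-370 of the miR-127 end and miR-409b of the miR-379 end did not pass. In the same fit 40 of 180 miRNAs, 22.2%, were called, 24 of them (13.3%) higher in males and 16 lower. The median fold of the 8 members was 2.27 against 0.0523 over all 180 miRNAs. It covers only members that passed the filter. miR-154c, with 3, 2, 5, 2 and 1 counts in female replicates 1 to 5, passed through the males. miR-411a, with 1, 6, 14, 3 and 2, and miR-493, with 18, 3, 38, 5 and 3 in the same order, passed mainly through the males. The median and the count of 5 are therefore a description and not a test of the cluster.

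miR-154c was at 40.5, 24.7, 9.38, 19.7 and 9.11 CPM in nuclear transfer female replicates 1 to 5, and at 51.0 (lowest), 269.7 (median) and 1068 CPM (highest) in the 7 males. All 7 males stood above the highest female. The means were 402.5 ± 336.1 CPM (SD, n = 7) in males and 20.7 ± 13.0 CPM (SD, n = 5) in females, and the log2 fold was 4.45 with SE 0.82 (edgeR adjusted p = 0.00546). miR-154c was the member with the largest fold of the 8 in this comparison.

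miR-411a, which neighbors miR-379 in the row, was at 13.5, 74.2, 26.3, 29.6 and 18.2 CPM in the 5 females, and at 94.6, 269.7 and 620.5 CPM (lowest, median and highest) in the males. Again no male overlapped the females, though female replicate 2 stood above the other 4. The log2 fold was 3.25 with SE 0.70 (edgeR adjusted p = 0.00932).

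miR-379, the first miRNA of the long row, was at 189.0, 234.8, 67.5, 59.2 and 82.0 CPM in the females, and at 240.2, 468.9 and 1119 CPM in the males. The groups did not overlap, but the lowest male lay close above female replicate 2. The log2 fold was 2.24 with SE 0.65 (edgeR adjusted p = 0.0266). Of all 180 miRNAs tested, 12 (6.67%) had male and female libraries that did not overlap, and 3 of these were miR-154c, miR-411a and miR-379.

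miR-381, the most abundant member, was at 202.5, 506.7, 127.5, 138.0 and 109.4 CPM in the females, and at 232.9, 800.9 and 2293 CPM in the males. Of the 7 males, 5 were above the highest female and all 7 above the female median, so the groups overlapped through female replicate 2. The log2 fold was 2.30 with SE 0.69 (edgeR adjusted p = 0.0272).

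miR-493, the first member of the miR-127 end in the table, was at 243.0, 37.1, 71.3, 49.3 and 27.3 CPM in the females, and at 61.7, 324.8 and 1152 CPM in the males. The overlap came from female replicate 1 at the top and from the lowest male, replicate 4. The log2 fold was 2.50 with SE 0.77 (edgeR adjusted p = 0.0304).

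The other 3 tested members had positive folds that did not pass. miR-409b was at 148.5, 407.8, 67.5, 147.9 and 54.7 CPM in the females and at 115.6, 299.2 and 1363 CPM in the males, a log2 fold of 1.44 with SE 0.72 (edgeR adjusted p = 0.144). For miR-127, the miRNA antisense to RTL1, females were at 189.0, 593.2, 120.0, 69.0 and 45.6 CPM and males at 174.7, 345.9 and 688.6 CPM, a log2 fold of 0.99 with SE 0.68 (adjusted p = 0.299); limma voom called miR-127 here, at 1.98 (adjusted p = 0.0219), and with the share of miR-2887 and miR-2904 as a covariate its fold was 0.03. miR-370 was the flattest of the 8, with females at 128.2 to 337.5 CPM and males at 53.9 to 421.6 CPM, a log2 fold of 0.54 with SE 0.56 (adjusted p = 0.508). With the same covariate the fold of miR-409b was 0.73 and that of miR-370 was 0.04. miR-370 was at 0.28 both with limma voom and on library totals without TMM. For each of these 3, only 2 of the 7 males were above the highest female.

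**Figure D2:**
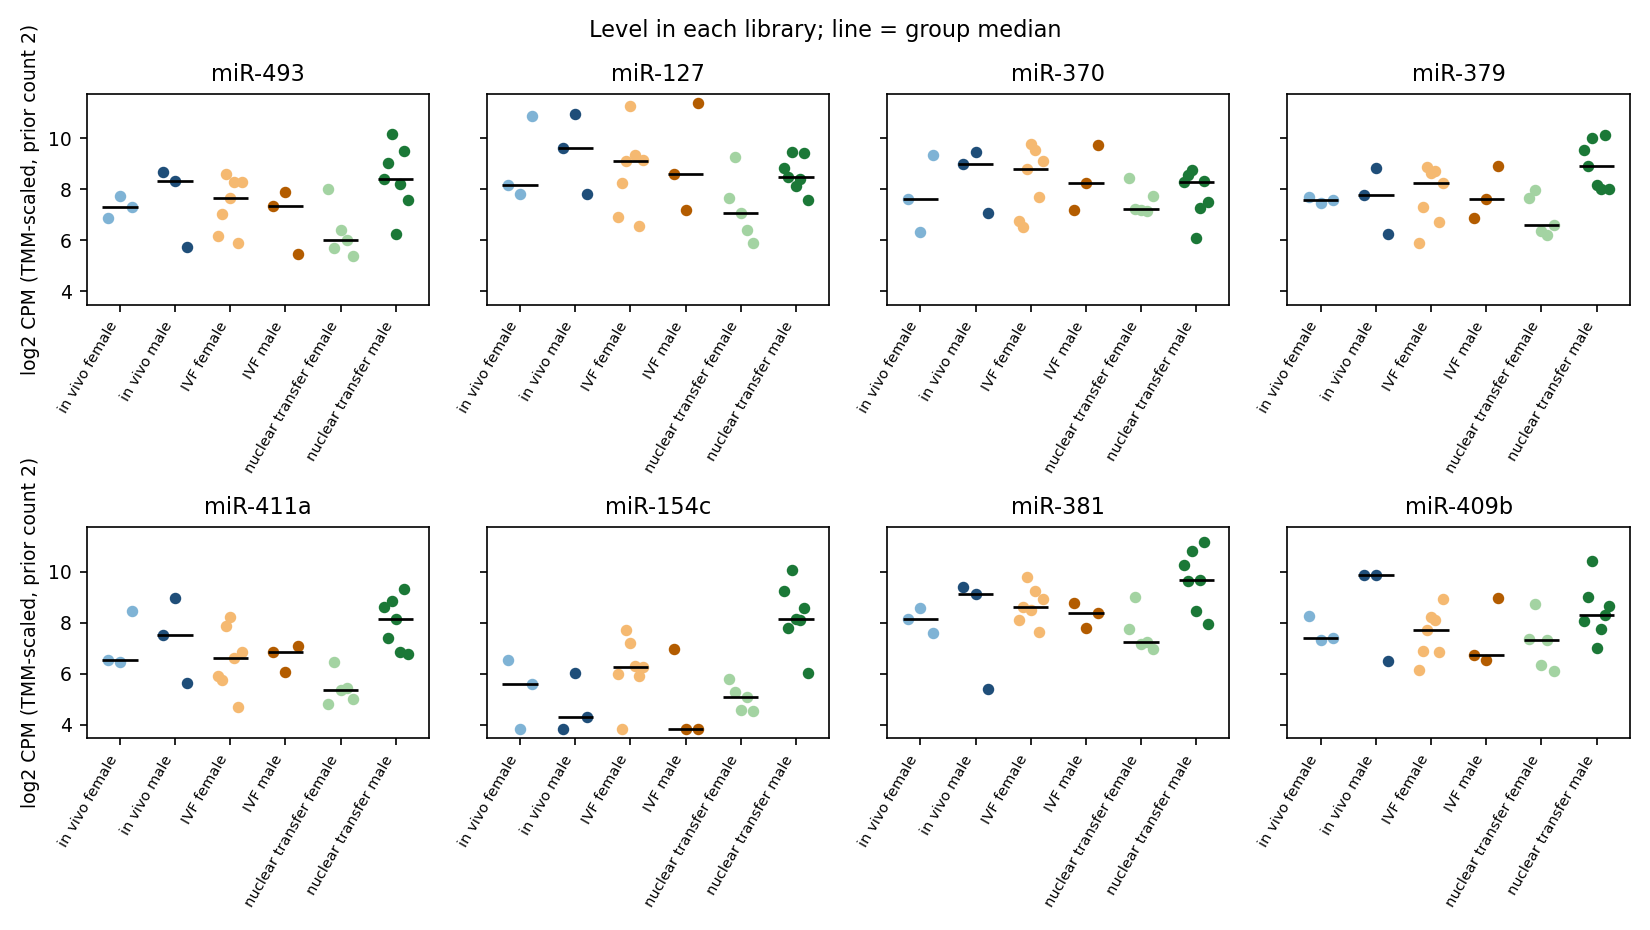
Level (log2 CPM, prior count 2) of the 8 members tested within nuclear transfer, in every library by group; each point is a library and the line is the group median. For miR-379, miR-411a and miR-154c every nuclear transfer male lies above every nuclear transfer female, while the groups overlap for the other 5.

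The number of members called in this comparison depended on single libraries. It was 2 without nuclear transfer female replicate 3, 4 or 5 or without male replicate 3 or 6, 4 without male replicate 1 or 2, and 5 otherwise. miR-154c and miR-411a were called in all 12 of these fits; without female replicate 2, miR-127 was called at 1.78 (edgeR adjusted p = 0.0407) and miR-493 was not. Without female replicate 5 the fold of miR-127 was 0.56 and that of miR-409b 0.93, without male replicate 3 that of miR-409b was 0.94, and that of miR-370 ran from 0.06 to 0.78 over the 12 fits. Leaving out the 2 deepest libraries, an alternative chosen after seeing the data, removes only female replicate 3 from this comparison. It is therefore the same fit as that without female replicate 3, with miR-154c and miR-411a called, and not a further check.

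The male and female nuclear transfer libraries also differed in their make-up. miR-2887 and miR-2904 took 5.17% to 44.5% of the counts in the females and 30.3% to 59.4% in the males, and let-7a-5p took 5.55% to 14.4% in the females and 0.321% to 6.27% in the males. With the share of miR-2887 and miR-2904 as a covariate, 0 members were called, and 1 of the 180 miRNAs was: the log2 folds became 2.50 for miR-154c (edgeR adjusted p = 0.226), 2.30 for miR-411a (0.348), 1.74 for miR-493 (0.544), 1.32 for miR-381 (0.549) and 1.25 for miR-379 (0.544). With these 2 entries removed from the table, the same 5 members were called. Female replicates 1 and 2, at 44.5% and 36.2%, lay within the range of the males in this share, and their miR-154c, at 40.5 and 24.7 CPM, lay below the lowest male at 51.0 CPM. The same 2 females were also the highest 2 of the 5 females in miR-154c, miR-379, miR-381 and miR-127, and miR-381 in replicate 2 (506.7 CPM) and miR-493 in replicate 1 (243.0 CPM) lay within the range of the males. In miR-411a, replicate 2 was the highest female and replicate 1 the lowest.

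**Figure D3:**
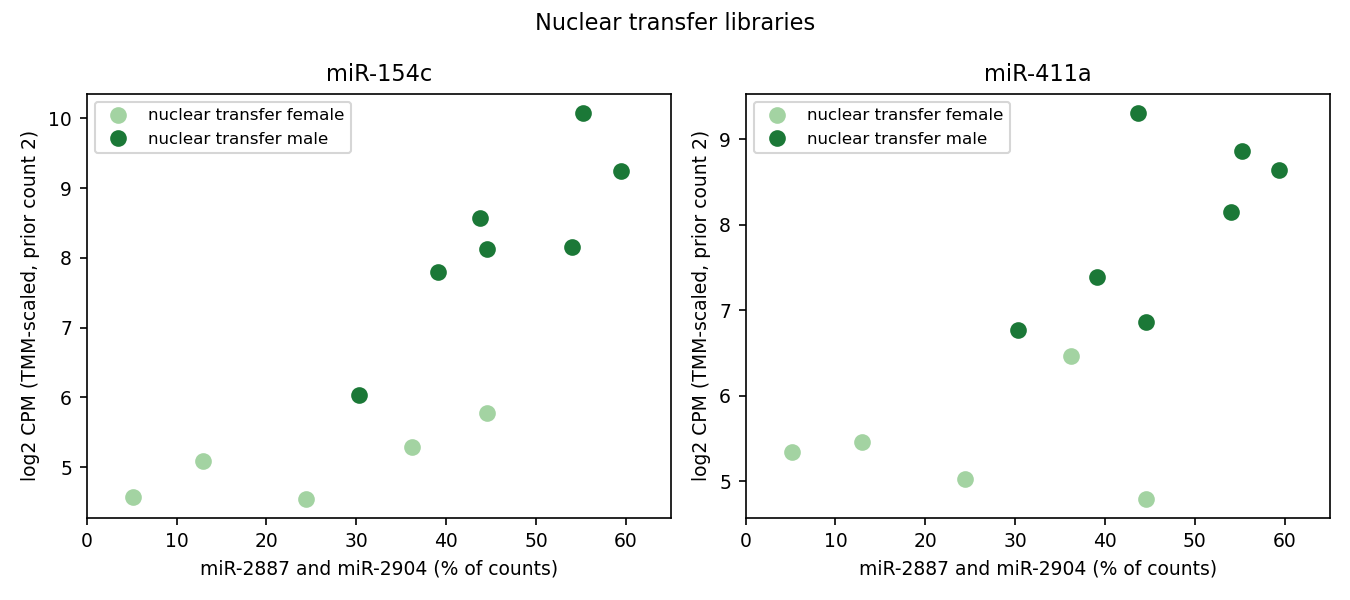
miR-154c (left) and miR-411a (right) in the 12 nuclear transfer libraries, as log2 CPM with a prior count of 2, against the share of miR-2887 and miR-2904 in each library in percent. The 2 females at 36.2% and 44.5% lie in the range of shares of the males and below all males in level for both miRNAs.

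Marker miRNAs of other cell types were summed in the same libraries. The pluripotency list (6 of 6 entries with counts: miR-302a to miR-302d, miR-367 and miR-371, of which miR-367 had 1 count in all) summed to 140.6 to 1088 CPM in nuclear transfer females and 422.8 to 7784 CPM in males. The epithelial list (6 of 6) summed to 16370 to 103100 CPM in females and 6840 to 32320 CPM in males. The muscle list (4 of 4: miR-1, miR-133a, miR-133b and miR-206) ran from 11.3 to 2324 CPM in females and from 39.4 to 16900 CPM in males, and the list of smooth muscle and fibroblasts (5 of 5, led by miR-143) from 1594 to 11730 and from 1299 to 8575 CPM. The serum and red cell list (4 of 4, with miR-122 and miR-451) ran from 273.8 to 6043 CPM in females and from 1291 to 28400 CPM in males, and the neuron list (5 of 5, led by miR-9) from 6243 to 26570 and from 5601 to 27390 CPM. The sexes overlapped in all 6 lists, and the part of these differences in the result was not tested. In vesicle libraries, fewer vesicles from a cell type and less of a miRNA per vesicle cannot be told apart.

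A ratio between members of 1 library does not depend on the scaling. Counts of the miR-379 end divided by those of the miR-127 end ran from 1.95 to 3.51 (median 2.84) in the 7 nuclear transfer males. In the 5 nuclear transfer females the ratio was 1.28, 2.19, 1.27, 2.21 and 1.29. It was 0.514 to 2.26 in in vivo females, 0.899 to 1.37 in in vivo males, 0.641 to 1.97 in IVF females and 0.676 to 1.46 in IVF males. Thus 5 of the nuclear transfer males stood above every library of the other groups, and the lowest 2, at 1.95 and 2.15, stood within the range of the nuclear transfer females. The ratio of miR-154c to miR-127 was 0.292 to 1.55 in nuclear transfer males and 0.0417 to 0.286 in nuclear transfer females. It was 0 to 0.292 in in vivo females, 0 to 0.0263 in in vivo males, 0 to 0.571 in IVF females and 0 to 0.3 in IVF males, so the nuclear transfer males overlapped both IVF groups and met the highest in vivo female.

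A further 32 members held counts and did not pass the filter in the fit of 28 libraries. Summed within a library, they amounted to 9.43 to 50.6 counts per 100000 (median 20.5) in the 7 nuclear transfer males and to 4.82, 23.0, 4.64, 9.48 and 11 in nuclear transfer female replicates 1 to 5, so the sexes overlapped. In vivo females were at 27.3, 11.9 and 30.5, in vivo males at 23.1, 45.8 and 4.74, IVF females at 5.48 to 20.7 and IVF males at 8.05, 3.35 and 45.9. Pooled over a group the value was 23.7 in nuclear transfer males (234 counts, exact Poisson interval 20.8 to 27.0) and 7.14 in nuclear transfer females (68 counts, 5.54 to 9.05), intervals that cover counting error and not the spread between conceptuses. Single libraries set such pooled values: nuclear transfer females were at 11.5 without replicate 3, in vivo males moved from 10.2 to 32 without replicate 3, above nuclear transfer males, and IVF males moved from 11.4 to 5.85 without replicate 3. miR-380-3p had 16 of its 17 counts in nuclear transfer males, with 5 in replicate 5 and 9 in replicate 6. miR-665 had 13 of its 15 in the same group, which held 985711 of the 4025649 counts of all libraries. miR-369-5p and miR-485, with 68 counts each, had 28 and 25 there, and 4 and 2 in nuclear transfer females. The remaining untested members with at least 10 counts were miR-431 (53), miR-409a (51), miR-369-3p (39), miR-136 (36), miR-487b (34), miR-411c-5p (29) and those that follow. They were miR-134 (27), miR-758 (26), miR-410 (23), miR-154b (16), and miR-299, miR-323b-3p and miR-656 (10 each). Not all were higher in nuclear transfer males. miR-323b-3p had 1 count in these males and 5 in nuclear transfer females, miR-409a 10 and 12, and miR-656 2 and 3.

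Male against female vesicles gave no called member in the other types of conceptus. In IVF, 0 of 10 members and 0% of 200 miRNAs were called by edgeR, with 0 members at an unadjusted p under 0.05 and 0 called by DESeq2 or limma voom. Of the 10 folds, 4 were positive (2 to 7 under other scalings and tools) and the median was -0.04, against -0.17 over all 200. Among them, miR-154c was at -0.83 (SE 1.27), miR-381 at -0.46 (SE 0.64), miR-411a at -0.23 (SE 0.86) and miR-379 at -0.07 (SE 0.79). The IVF males were 3 libraries, and all 4 of these folds were smaller than their SE.

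In vivo, 0 of 8 members and 0% of the miRNAs tested were called, with 0 members at an unadjusted p under 0.05 and 0 by DESeq2 or limma voom. All 8 folds were positive, with a median of 0.62 against 0.06 over all miRNAs, and each was within 2 SE of 0. The highest were miR-409b at 1.80 (SE 1.04) and miR-543 at 1.74 (SE 1.23). miR-409b was at 294.7, 145.2 and 155.6 CPM in the 3 in vivo females and at 916.2, 913.4 and 77.3 CPM in the 3 males, so that the low male, which is 1 of the 2 deepest libraries, stood below all females.

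**Figure D4:**
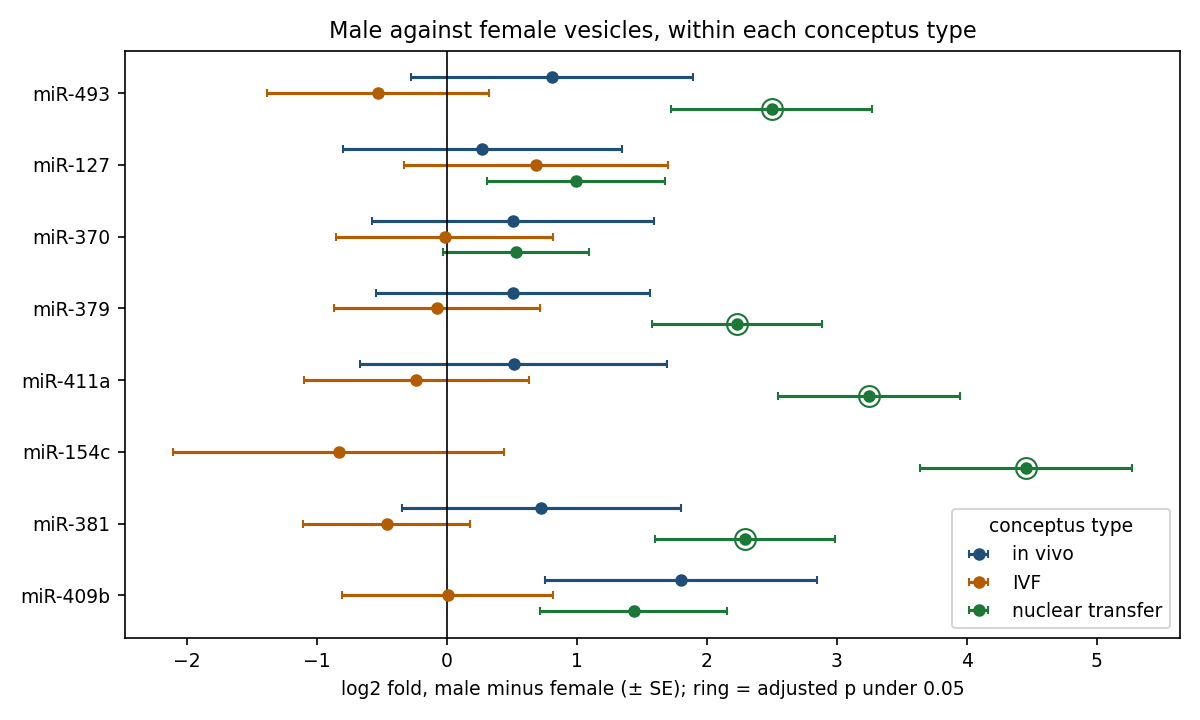
Log2 fold of male over female vesicles (point) with its SE (bar) for the 8 members tested within nuclear transfer, in each type of conceptus; a ring marks an adjusted p under 0.05, and miR-154c was not tested in vivo. The nuclear transfer folds of the 5 called members lie between 2.24 and 4.45, and the IVF folds of the same members lie below 0.

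The difference between the sex difference in nuclear transfer and that in IVF was tested directly in the fit of 28 libraries. It was 5.28 (SE 1.65) for miR-154c, 3.46 (SE 1.2) for miR-411a, 2.98 (SE 1.17) for miR-493, 2.79 (SE 1.01) for miR-381 and 2.28 (SE 0.99) for miR-379 on the log2 scale. edgeR called 0 of 16 members and 0% of 240 miRNAs, with the smallest adjusted p of a member at 0.423. These 5 members had an unadjusted p under 0.05, as did 9.58% of all 240 miRNAs. They are the members called within nuclear transfer, and the same libraries enter this difference, so their unadjusted p is not separate support. Without IVF male replicate 1, which leaves IVF males with no miR-154c count, the value of miR-154c was 10.71 (adjusted p = 0.0671), and on library totals without TMM that of miR-379 was 1.5. DESeq2 called 1 member, miR-154c (adjusted p = 0.046), and limma voom called 0. The test over all 3 types on 2 degrees of freedom called 0 members and 0% of miRNAs by edgeR, and 0 members by the other tools. In it, 5 members and 14.6% of all 240 miRNAs had an unadjusted p under 0.05. A larger sex difference in nuclear transfer than in IVF was therefore not shown at the adjusted threshold by the main test.

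Over all 3 types, males against females gave positive folds for 15 of 16 members, with miR-654 at -1.25 as the exception, and a median of 0.86 against -0.04 over 240 miRNAs. The nuclear transfer libraries are part of this comparison. edgeR called 0 members and 0% of miRNAs, and DESeq2 and limma voom called 0. An unadjusted p under 0.05 was reached by 3 of the 16 members and by 3.75% of all 240 miRNAs. These 3 were miR-432 at 1.63 (SE 0.65), miR-411a at 1.13 (SE 0.49) and miR-409b at 1.05 (SE 0.48), each with an adjusted p of 0.694. miR-411a was at 0.69 without in vivo male replicate 2, and miR-409b at 0.61 without IVF male replicate 3. For miR-432, 1 of the miRNAs antisense to RTL1, the 2 highest levels of the 28 libraries were in in vivo males, at 154.9 and 236.8 CPM, while the third in vivo male was at 8.28 CPM and the 3 in vivo females were at 0 to 11.3 CPM.

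Set against the other types, nuclear transfer males were high and nuclear transfer females low in several of these members, without passing the test. For miR-381, the group medians were 272.0 CPM in in vivo females, 541.3 in in vivo males, 379.3 in IVF females, 316.7 in IVF males, 138.0 in nuclear transfer females and 800.9 in nuclear transfer males. For miR-379, they were 177.9, 206.5, 289.1, 181.7, 82.0 and 468.9 CPM in the same order. For both miRNAs, groups next to each other in the order of their medians overlapped. The comparisons of nuclear transfer with IVF and with in vivo share the nuclear transfer libraries.

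miR-154c was the member that came nearest to a call among males. It had 0 counts in 1 of 3 in vivo males and in 2 of 3 IVF males, which allows up to 38.7 CPM in the first and up to 38.9 and 45.3 CPM in the others (3 counts of each library). The remaining in vivo males were at 50.7 and 5.52 CPM and the remaining IVF male at 111.3 CPM, against 51.0 to 1068 CPM in nuclear transfer males. The log2 fold of nuclear transfer over in vivo males was 4.65 with SE 1.45 (edgeR adjusted p = 0.0721), and over IVF males 3.30 with SE 1.28 (adjusted p = 0.575). Without IVF male replicate 1, the only IVF male with a count, the second fold was 8.73 (adjusted p = 0.07), against a group at 0 counts, and is no bound. The folds of 4.65 and 3.30 rest on groups that include libraries at 0, with 5 counts over the in vivo males and 12 over the IVF males. edgeR called 0 of 16 members and 0% of 240 miRNAs in each of these comparisons. An unadjusted p under 0.05 was reached by 1 and 2 members, and by 22.5% and 6.67% of all 240 miRNAs. DESeq2 and limma voom each called miR-154c in the first comparison and no member in the second. miR-154c was called in the first also without IVF male replicate 1, IVF male replicate 3 or nuclear transfer male replicate 7, with an adjusted p of 0.0415 to 0.268 over all 28 fits that left out 1 library. In the 2 remaining female libraries without a count, in vivo replicate 2 and IVF replicate 2, the limits were 21.8 and 19.6 CPM.

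Among females, most members had negative folds in nuclear transfer: 15 of 16 were below 0 against IVF (median -1.05, all miRNAs 0.00894) and 13 of 16 against in vivo (median -0.55, all miRNAs 0.186), and 13 and 14 on library totals without TMM. edgeR called 0 members and 0% of 240 miRNAs in each, and DESeq2 and limma voom called 0 members. In each, 1 member had an unadjusted p under 0.05, beside 15% (against IVF) and 4.58% (against in vivo) of all 240 miRNAs. That member was miR-411a, at -1.77 (SE 0.77, adjusted p = 0.31) against IVF and -2.31 (SE 0.89, adjusted p = 0.688) against in vivo females. Its 5 nuclear transfer females, at 13.5 to 74.2 CPM, overlapped the IVF females at 11.4 to 285.4 CPM and the in vivo females at 72.6 to 333.5 CPM. Without in vivo female replicate 3, its fold against in vivo was -1.25.

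With both sexes weighted equally, 0 of 16 members were called between types by edgeR, DESeq2 or limma voom. Of all 240 miRNAs, edgeR called 0% for IVF against in vivo, 0.417% for nuclear transfer against in vivo and 1.25% for nuclear transfer against IVF. An unadjusted p under 0.05 was reached by 0, 2 and 2 members, and by 16.2%, 11.2% and 10% of all 240 miRNAs. In the last 2 comparisons, 2 of 16 members is near the share of all miRNAs. The 2 members were miR-127 and miR-433, both of the group antisense to RTL1. miR-127 was at -1.60 (SE 0.68, adjusted p = 0.377) against in vivo and -1.52 (SE 0.63, adjusted p = 0.428) against IVF. miR-433 was at -2.42 (SE 0.96, adjusted p = 0.311) and -1.90 (SE 0.92, adjusted p = 0.428). Without in vivo female replicate 3 the folds against in vivo were -0.84 for miR-127 and -1.16 for miR-433. Against IVF, miR-127 was at -0.53 without IVF male replicate 3, miR-433 at -1.11 without that library and -1.26 without IVF female replicate 4, and limma voom gave -0.54 and -0.50. miR-433 had 12 counts over the 12 nuclear transfer libraries, with none in 4 of them, 22 over the 6 in vivo libraries and 21 over the 10 IVF libraries.

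The high levels of miR-127 came from 4 libraries, 1 in each in vivo and IVF group: in vivo female replicate 3 at 1890 CPM, in vivo male replicate 2 at 1962, IVF female replicate 4 at 2451 and IVF male replicate 3 at 2655. The next highest library of the 28 was at 774.3 CPM, and nuclear transfer libraries ran from 45.6 to 688.6 CPM. The same 4 libraries held the 4 highest sums of the neuron list, at 45250, 59200, 63060 and 64240 CPM, with the next at 27390. miR-124a and miR-124b, the miRNAs most closely tied to neurons, had no count in 18 of 28 libraries, among them 7 of 7 nuclear transfer males and 4 of 5 nuclear transfer females, and had their highest counts in these 4. Their counts kept 1 proportion in every library (28 and 14 in in vivo female replicate 3, 62 and 31 in IVF male replicate 3), so they are not separate measurements. miR-9-3p, also of the list, was not highest there, with 4, 10, 56 and 12 counts in these 4 libraries and 162 in nuclear transfer male replicate 1. miR-433 was highest in the same 4 libraries, at 88.9, 84.6, 134.3 and 90.5 CPM. These 4 libraries were also unusual in depth or make-up. The shallowest of the 28 were in vivo male replicate 2 (39263 counts), IVF male replicate 3 (41396) and in vivo female replicate 3 (49179). IVF female replicate 4 had the highest share of miR-2887 and miR-2904, at 76.3%. The part of the neuron list, of depth or of make-up in the difference of miR-127 between types was not tested.

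**Figure D5:**
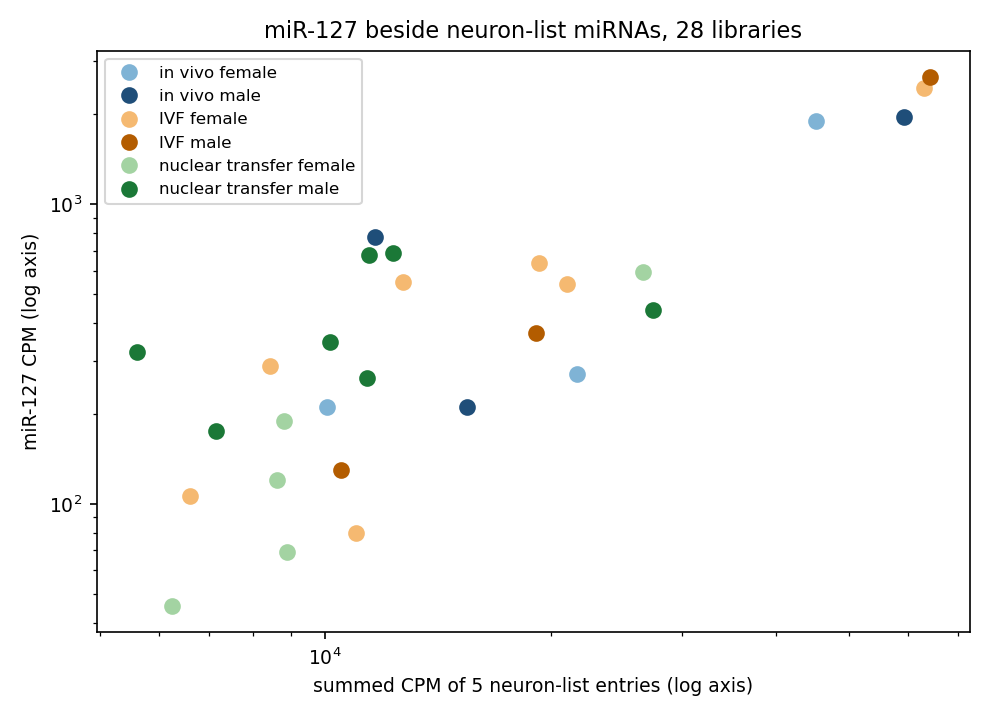
miR-127 (CPM, log axis) against the summed level of 5 entries of the neuron list (CPM, log axis) in the 28 libraries, colored by group. In the upper right 4 libraries, 1 of each in vivo and IVF group, stand apart from the other 24; none is from nuclear transfer.

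miR-381 and miR-379, both of the miR-379 end, varied together over libraries. Over 28 libraries, Pearson's r of their log2 CPM was 0.827 and Spearman's rho 0.793 (permutation test, 100000 resamples, two-sided; adjusted p = 0.00012 and 8e-05 over 6 relations, from raw p = 2e-05 for both, the smallest these resamples can give). Without the 2 libraries farthest from the median of miR-381, r was 0.789, and after subtracting group means it was 0.737. For miR-381 with miR-370 of the other end, r was 0.313 and rho 0.32 (permutation p = 0.106 and 0.0995, adjusted p = 0.106 and 0.0995; 0.416 after subtracting group means). For miR-379 with miR-370, also of different ends, r was 0.573 and rho 0.619 (permutation p = 0.00162 and 0.0007, adjusted p = 0.00243 and 0.00084); r was 0.602 without the 2 libraries farthest from the median of miR-379 and 0.761 after subtracting group means. For miR-127, Pearson's r is not given as a pooled value because 4 libraries stand apart in it. Its rho was 0.713 with miR-379 and 0.622 with miR-381, both of the other end, and 0.7 with miR-370 of its own end. The permutation test gave adjusted p = 8e-05, 0.00084 and 8e-05. After subtracting group means, r was 0.778, 0.545 and 0.709 in the same order. That step does not remove the 4 libraries, since each lies in a different group, so these r values carry the same limit. All of these values share each library's scaling and make-up.

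The other 8 members tested in the fit of 28 libraries were called in no comparison by the main test. miR-432 ran from 0 to 236.8 CPM over libraries (median 19.6), miR-543 from 0 to 608.9 (57.9), miR-494 from 0 to 620.5 (32.3), miR-382 from 0 to 281.0 (42.5), miR-495 from 0 to 135.0 (45.8), miR-323 from 0 to 168.6 (14.9), miR-654 from 0 to 121.7 (29.0) and miR-433 from 0 to 134.3 CPM (7.99). miR-494 had positive folds in all 9 of its comparisons, which share libraries, between 0.37 and 2.68, with a smallest adjusted p of 0.265. It did not pass the filter within nuclear transfer, and without that filter it was called there as higher in males. Its highest level was in nuclear transfer male replicate 6, which alone held 112 of its 216 counts. miR-495 stayed between -0.47 and 0.18.

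Few miRNAs of other imprinted regions were measurable. miR-296-3p, with 706 counts, was the only one tested, at 1.31 (SE 0.65, edgeR adjusted p = 0.144) for males over females in nuclear transfer; miR-296-5p had 55 counts, miR-335 had 23 and miR-483 had 4. miR-342, whose host gene EVL lies near DLK1, had 1392 counts and was at -1.22 (SE 0.61, adjusted p = 0.144) in the same comparison, with most of its counts in the 2 deepest libraries.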

How the data were processed

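The authors deposited the vesicle data as whole-number counts of reads per bovine miRNA, not normalized. The submitters' processing notes name Bowtie, STAR, featureCounts, DESeq2 and cutadapt, with ARS-UCD1.2 as the build; which tool did what, in which version, and how reads matching several entries were treated is not given there. Per the labels' protocols, RNA under the short size limit was made into libraries and size selected. All sample columns of the vesicle table were used (0 columns of no sample), and the endometrium table was not used. Groups came from the sample titles.

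Tests of the counts used edgeR 4.0.16 (R 4.3.3): TMM scaling, filterByExpr (minimum count 10, minimum total 15), the quasi-likelihood F test, two-sided, and Benjamini-Hochberg adjustment over all miRNAs tested, with a threshold of 0.05. Contrasts between types, and differences between sex differences, came from 1 fit of 6 group means over 28 libraries; the sex contrast of a type came from a fit of its own libraries. SE is the fold divided by the root of F. Alternatives were DESeq2 1.42.0, limma 3.58.1 (voom with quality weights), other scalings, other filters, composition terms, a replicate block and leaving out each library. Permutation tests used scipy 1.17.1. The scripts were tested on simulated data with known folds. For males against females in nuclear transfer, 9 of 17 log2 folds of 2 and 14 of 15 of 3 were called, with 2 false calls. For nuclear transfer against IVF, 19 of 23 and 21 of 24 were called, with 2 false calls.

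Totals of 39263 to 603579 counts per library limit the precision of low members, which were counted and not tested. The titles number replicates within groups, but every library is from a different animal, and the same-numbered libraries correlated above 0.1 in 3 of 11 pairs (range -0.415 to 0.243), so the numbers were not used as pairs. The members and lists, and the tests, were chosen with earlier results of these data known. Members that passed the filter within nuclear transfer, or any threshold, are named with their values; the other tested members with their level and range of folds; the untested with their counts, from 10 counts on or where a family or a total is described.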

Additional observations from a re-analysis of the deposited data

Results flagged for a closer look

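Within groups of 4 to 10 libraries, 24 sets of levels were screened for a highest or lowest library that stood apart. The rule sets its gap to the next library against the range of the group. A rate of about 1 set in 20 by chance holds for values with a normal distribution. CPM was used without logs and can be skewed upward, so that rate cannot be applied here. Every marked library was the highest of its group. Nuclear transfer female replicate 2 stood above the other 4 females in 4 members: miR-127 at 593.2 CPM (others 45.6 to 189.0), miR-381 at 506.7 CPM (109.4 to 202.5), miR-409b at 407.8 CPM (54.7 to 148.5) and miR-411a at 74.15 CPM (13.5 to 29.6). The members share 1 library, so these are not 4 separate events. Nuclear transfer female replicate 1 stood apart in miR-493 at 243.0 CPM (others 27.3 to 71.3). IVF female replicate 4 stood apart in miR-127 at 2451 CPM (others 79.6 to 636.6), and nuclear transfer male replicate 3 in miR-409b at 1363 CPM (others 115.6 to 507.3).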

How the results depend on the processing

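Of the 13 counts of called members, those not named here kept their value of 0 under all alternatives run. For male against female nuclear transfer vesicles the count of 5 became 6 with limma voom (miR-127 added). It was 7 with a filter of 10 CPM in 3 libraries (miR-665 and miR-369-5p added). Without a low count filter it was 8 (miR-665, miR-380-3p and miR-494 added). With the share of miR-2887 and miR-2904 as a covariate it was 0. When single libraries were left out it was 2 to 5. Leaving out the 2 deepest libraries, an alternative chosen after seeing the data, gave 2. Here that is the same fit as leaving out nuclear transfer female replicate 3. For nuclear transfer against in vivo males the count of 0 became 1 with DESeq2, 1 with limma voom, 1 without the filter and 0 to 1 when single libraries were left out. For the difference of sex differences between nuclear transfer and IVF it became 1 with DESeq2. Of the 25 folds followed through the alternatives (the 8 members within nuclear transfer, and members with an unadjusted p under 0.05 elsewhere), 0 changed sign, though single libraries or settings moved several by over 1.5 times, as given beside them. A block for the replicate number (replicate block) left 5 members and 41 miRNAs called within nuclear transfer, moved miR-127 there to 1.75 (not called), and changed no count of members; the numbers do not pair the samples. The split of all called miRNAs within nuclear transfer, 24 higher and 16 lower in males, was 15 and 14 on library totals without TMM, 25 and 22 with limma voom, 8 and 8 without both deep libraries and 7 and 13 in the fit of 28 libraries. Library totals without TMM moved the median of all miRNAs there from 0.0523 to -0.181, and the 5 members stayed called. Depth limits the tests to 16 of 55 members.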
